A study of Mus musculus with 12 samples.

Results

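Sox10, Erbb3, Cdh19, S100b, Mbp, Pmp22, Prx and Mag are 8 genes of Schwann cells and of the myelin that these cells form around peripheral axons. They are 8 of the 23284 genes in a raw count table of RNA from mouse mandibular condylar fibrocartilage, which caps the lower jaw where it meets the skull. The list was chosen by Sox10 counts, which were higher in ERalphaKO than in WT tissue under estradiol (E2), and the values of that comparison are given here as a description, without a test. The libraries fall into 4 groups of female C57BL/6 mice, 17 weeks old at harvest, all of which had been ovariectomized at 16 weeks. ERalphaKO mice, which lack estrogen receptor alpha, received an E2 pellet (ERalphaKO E2, n = 3) or a placebo pellet (ERalphaKO Plb, n = 4). Wild-type mice received E2 (WT E2, n = 3) or placebo (WT Plb, n = 2). The pellets held 0.01 mg of E2 for 60-day release and stayed in place for 1 week. The allele removed in ERalphaKO is not given in the sources used here, and nothing says that the replicates are separate animals, so p-values measure the spread between these libraries.

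Schwann cells descend from the neural crest and accompany peripheral nerve fibres. Those around large axons wrap them in myelin, and the others hold bundles of thin axons without myelin. Sox10 is the transcription factor that sets and maintains the glial lineage, and it acts on the genes of the growth factor receptor Erbb3 and of several myelin proteins. Compact myelin holds Mbp and Pmp22, while Mag sits next to the axon and Prx links the outer Schwann cell membrane to the surrounding matrix. Several of the 8 genes also have products in cells other than glia. S100b is made by chondrocytes, Pmp22 was first found in growth-arrested fibroblasts, Prx is also present in endothelial cells, and the Mbp locus yields related transcripts in blood cell lineages.

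The libraries held 9696434 to 28750636 counts. Levels are given as CPM, counts scaled to a common library total after adjustment by trimmed mean of M values (TMM), and 3 counts, used as the detection floor, stood for 0.110 to 0.315 CPM. Esr1, which encodes the deleted receptor, had 3.65 to 5.78 CPM in the 7 ERalphaKO libraries and 8.52 to 17.5 CPM in the 5 WT libraries. The labelled tissue was checked by its markers, and fibroblast and chondrocyte genes were abundant. A list of 8 fibroblast genes summed to 78267 CPM or more in every library, and a list of 12 chondrocyte genes to 5308 CPM or more. Other tissues entered unevenly. A list of 17 skeletal muscle genes summed to 19.7 to 76.6 CPM in ERalphaKO E2, 22.3 to 8014 CPM in ERalphaKO Plb, 309 to 1632 CPM in WT E2 and 16.5 to 3342 CPM in WT Plb. A list of 10 granulocyte genes reached 6958 CPM in ERalphaKO E2, 15765 CPM in ERalphaKO Plb, 1032 CPM in WT E2 and 880 CPM in WT Plb.

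The 8 genes spanned a wide range of abundance, from Pmp22 to Erbb3. Set per kilobase of exon in GENCODE M21, mean levels over the 12 libraries were 96.8 CPM per kb for Pmp22, 11.5 for S100b, 3.09 for Mbp and 1.999 for Prx. The others lay below 1 CPM per kb, with 0.274 for Mag, 0.163 for Cdh19, 0.155 for Sox10 and 0.124 for Erbb3. All 8 passed the filter on low counts, which asked for at least 0.511 CPM, or 10 counts at the median depth, in 2 or more libraries. Sox10 did so through 3 libraries of ERalphaKO E2 and 2 of ERalphaKO Plb, and no WT library reached that level. The members that varied least between libraries were Pmp22 and Prx, with coefficients of variation of 8.48% and 12.4%. Sox10 varied most, at 65.9%, followed by Erbb3 at 44.9%, Mag at 37.0% and Cdh19 at 31.5%. These 4 genes are also the least abundant, with 105 to 275 counts over all 12 libraries. In bulk RNA, fewer cells of a type and less RNA per cell cannot be told apart.

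Sox10 was lowest in WT tissue under E2. ERalphaKO E2 libraries had 0.964, 1.05 and 0.562 CPM, and ERalphaKO Plb libraries had 0.419, 0.586, 0.581 and 0.402 CPM. WT E2 libraries had 0.151, 0.0941 and 0.0512 CPM, and WT Plb libraries had 0.469 and 0.330 CPM. All 3 WT E2 libraries lay below the other 9, a pattern whose share among all tested genes was not computed. They held 3, 2 and 1 counts of Sox10, which places each at or below the floor of 3 counts. Group means ran from 0.859 ± 0.261 CPM (SD, n = 3) in ERalphaKO E2 through 0.497 ± 0.100 CPM (n = 4) in ERalphaKO Plb and 0.400 ± 0.0987 CPM (n = 2) in WT Plb down to 0.0986 ± 0.0498 CPM (n = 3) in WT E2. Among neighbours in that order, WT Plb and WT E2 were the pair whose libraries did not overlap.

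Under placebo, in libraries that had no part in the choice of the genes, Sox10 was not distinguishable between the genotypes. The log2 fold change of ERalphaKO Plb over WT Plb was 0.34 ± 0.43 (SE, edgeR quasi-likelihood test, adjusted p = 0.857), with a 95% interval of -0.60 to 1.28. In ERalphaKO tissue, E2 over placebo gave 0.75 ± 0.36 (adjusted p = 0.879, unadjusted p = 0.0619), and the libraries overlapped. In WT tissue, E2 over placebo gave -1.93 ± 0.52 with an unadjusted edgeR p of 0.00351 and an adjusted p of 0.226, so Sox10 did not pass the threshold of 0.05. All 3 WT E2 libraries were lower than both WT Plb libraries, as were the E2 libraries of 13.7% of all tested genes. The sums behind that ratio were 6 counts in WT E2 and 17 in WT Plb, a 3.88-fold lower level with a 95% counting interval of 1.46 to 12.01, which covers counting error only. Both E2 comparisons use the E2 libraries in which Sox10 was picked and give it no independent support. The picking comparison itself, ERalphaKO E2 over WT E2, stood at 3.02 ± 0.47 on the log2 scale. It came from 37 counts in ERalphaKO E2 and 6 in WT E2, a ratio of 8.19, given as a description only.

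Summed markers of other cell types are set beside the Sox10 values. The 8 fibroblast genes summed to 79848 to 93786 CPM in WT E2 and 114062 to 119070 CPM in WT Plb. Most of it was Col1a1, Col1a2 and Col3a1, with Col1a2 averaging 35618 CPM in WT E2 and 47454 CPM in WT Plb. Over the 8 genes the median log2 fold change for E2 in WT was -0.25, with 6 negative and 2 positive. The positive genes were Dcn (0.10) and Pdgfra (0.16). The 12 chondrocyte genes summed to 9921 to 27466 CPM in WT E2 and 9684 to 15638 CPM in WT Plb, which overlapped, and to 5308 to 9025 CPM in ERalphaKO E2. A list of 8 adipocyte genes summed to 2.68 to 9.48 CPM in WT E2 and 13.9 to 80.7 CPM in WT Plb. A list of 6 genes of the sheath around nerve bundles summed to 421 to 725 CPM in WT E2 and 793 to 853 CPM in WT Plb. Most of that sum was Wif1, and over the 5 tested genes of this list the median log2 fold change for E2 in WT was 0.04, with 3 positive and 2 negative. The part of these values in the Sox10 result was not tested. With the muscle genes as a covariate, the Sox10 value for E2 in WT was -1.98 (adjusted p = 0.289 in edgeR).

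**Figure D1:**
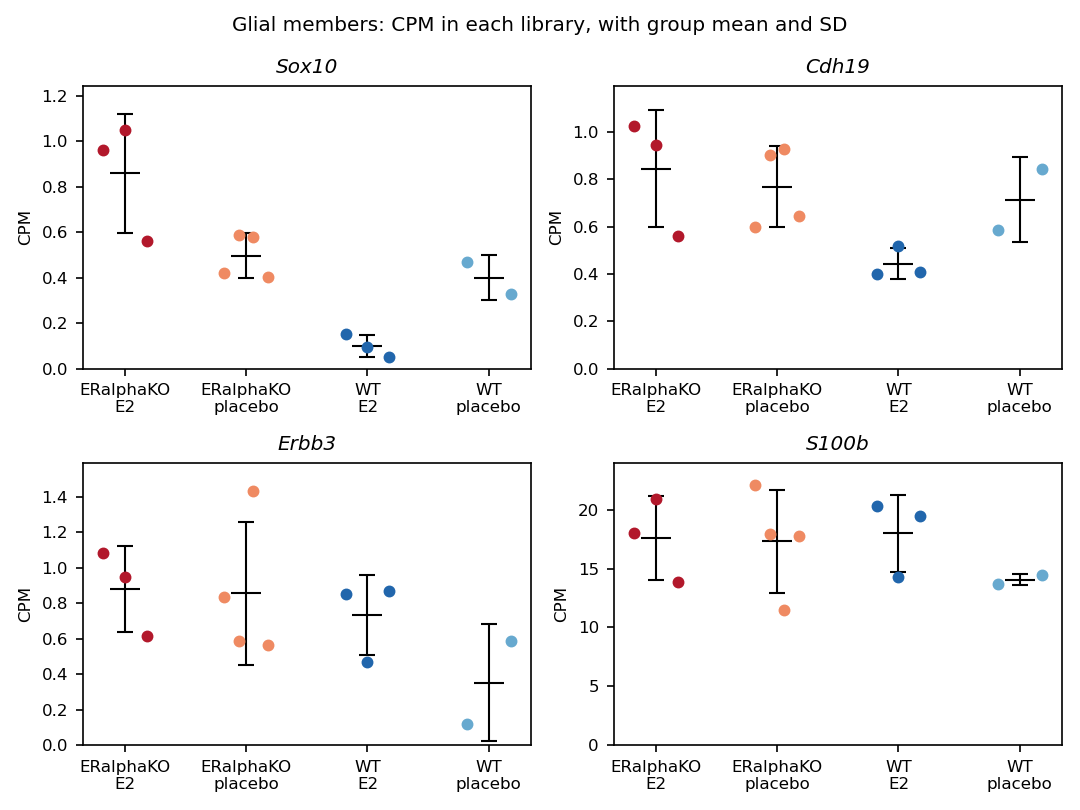
CPM of Sox10, Cdh19, Erbb3 and S100b (y axes, linear, from 0) in each library of the 4 groups (x axis); points are libraries, and bars give the mean and SD. The 3 WT E2 libraries are the lowest of the 12 for Sox10 and for Cdh19, while S100b overlaps between all groups.

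Cdh19, a cadherin of Schwann cell precursors and non-myelinating Schwann cells, was also lowest in WT E2. ERalphaKO E2 libraries had 1.02, 0.946 and 0.562 CPM, and ERalphaKO Plb libraries 0.598, 0.902, 0.930 and 0.644 CPM. WT E2 libraries had 0.401, 0.518 and 0.410 CPM, and WT Plb libraries 0.587 and 0.843 CPM. The WT E2 libraries again lay below all others, without overlap with any group, and the share of all tested genes with that pattern was not computed. For WT E2 below WT Plb alone that share was 13.7%. The WT E2 libraries held 8, 11 and 8 counts of Cdh19. ERalphaKO E2 replicate 3, the lowest of the other libraries at 0.562 CPM, also held 11 counts. Its distance from the WT E2 library at 0.518 CPM thus came from the scaling by library size. The sums were 27 counts in WT E2 and 33 in WT Plb, a 1.67-fold lower level. Its counting interval of 0.98 to 2.89 includes equal levels and covers counting error only. No tested difference passed. ERalphaKO Plb over WT Plb gave a log2 fold change of 0.10 ± 0.35 (edgeR, adjusted p = 0.967). E2 over placebo gave 0.11 ± 0.32 in ERalphaKO (adjusted p = 1) and -0.69 ± 0.38 in WT (adjusted p = 0.694). ERalphaKO E2 over WT E2, the comparison used for the choice, stood at 0.90 ± 0.35.

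Erbb3, the receptor through which neuregulin from axons acts on Schwann cells, did not follow Sox10. ERalphaKO E2 libraries had 1.08, 0.946 and 0.613 CPM, and ERalphaKO Plb libraries 0.838, 0.586, 1.43 and 0.563 CPM. WT E2 libraries had 0.853, 0.471 and 0.871 CPM, and WT Plb libraries 0.117 and 0.586 CPM. One WT Plb library with 2 counts was the lowest of the 12, and all groups overlapped with their neighbours. ERalphaKO Plb over WT Plb gave 1.19 ± 0.61 on the log2 scale (edgeR, adjusted p = 0.611). Without WT Plb replicate 1 that value was 0.54, and without WT Plb replicate 2 it was 2.80, so it rested on which of the WT Plb libraries was kept. E2 over placebo gave 0.03 ± 0.51 in ERalphaKO (adjusted p = 1) and 0.96 ± 0.64 in WT (adjusted p = 0.777), and the WT value ranged from 0.31 to 2.57 as single libraries were left out.

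S100b, a calcium-binding protein of glia, had 18.01, 20.9 and 13.9 CPM in ERalphaKO E2 and 22.1, 17.95, 11.5 and 17.8 CPM in ERalphaKO Plb. WT E2 libraries had 20.3, 14.3 and 19.5 CPM, and WT Plb libraries 13.7 and 14.4 CPM. The groups overlapped throughout, and no order among them was larger than their spread. ERalphaKO Plb over WT Plb was 0.30 ± 0.25 (edgeR, adjusted p = 0.772), and E2 over placebo was 0.02 ± 0.22 in ERalphaKO (adjusted p = 1) and 0.35 ± 0.26 in WT (adjusted p = 0.804). In GENCODE M21 (build GRCm38) S100b on chromosome 10 overlaps Dip2a on the opposite strand, a gene with its own row in the count table, and the counting strand is not given, so reads of the pair may be shared.

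The 4 myelin genes differed little between the groups. Pmp22, a membrane protein of compact myelin, had 223, 263 and 207 CPM in ERalphaKO E2 and 254, 212, 199 and 212 CPM in ERalphaKO Plb. It had 225, 245 and 229 CPM in WT E2, against 234 and 232 CPM in WT Plb. With this depth its intervals were narrow, so that ERalphaKO Plb over WT Plb lay between -0.35 and 0.17 on the log2 scale (95% interval around -0.09; edgeR, adjusted p = 0.860). E2 over placebo lay between -0.15 and 0.30 in ERalphaKO and between -0.27 and 0.27 in WT.

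Mbp, which binds the membrane layers of compact myelin together, had 40.8, 22.7 and 25.8 CPM in ERalphaKO E2 and 22.5, 23.1, 33.5 and 25.2 CPM in ERalphaKO Plb. WT E2 libraries had 20.2, 19.3 and 35.0 CPM, and WT Plb libraries 21.2 and 24.4 CPM. One library in each of ERalphaKO E2, ERalphaKO Plb and WT E2 stood above the others of its group. These 3 libraries also had the highest granulocyte sums of their groups, with 6958 CPM in ERalphaKO E2, 15765 CPM in ERalphaKO Plb and 1032 CPM in WT E2. WT Plb went the other way. Its library with 880 CPM of granulocyte genes had 21.2 CPM of Mbp, and its library with 71.3 CPM had 24.4 CPM. The part of granulocytes in the Mbp values was not tested. ERalphaKO Plb over WT Plb was 0.20 ± 0.29 (edgeR, adjusted p = 0.884), and E2 over placebo was 0.19 ± 0.25 in ERalphaKO (adjusted p = 0.997) and 0.13 ± 0.30 in WT (adjusted p = 0.956).

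Prx, the periaxin gene, had 9.52, 13.5 and 11.9 CPM in ERalphaKO E2 and 10.6, 10.9, 9.49 and 11.9 CPM in ERalphaKO Plb. It had 11.4, 10.2 and 9.37 CPM in WT E2, against 12.1 and 13.01 CPM in WT Plb. Every ERalphaKO Plb and every WT E2 library lay below both WT Plb libraries. The differences were -0.23 ± 0.15 for ERalphaKO Plb over WT Plb (edgeR, adjusted p = 0.699) and -0.29 ± 0.16 for E2 over placebo in WT (adjusted p = 0.700), and neither passed. Mag, an adhesion molecule of the inner myelin membrane, had 1.39, 0.526 and 1.43 CPM in ERalphaKO E2 and 0.539, 1.22, 1.78 and 0.925 CPM in ERalphaKO Plb. It had 1.10, 0.659 and 1.54 CPM in WT E2, against 1.41 and 0.879 CPM in WT Plb. Its group means lay between 1.10 and 1.14 CPM, and its values overlapped in every comparison.

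**Figure D2:**
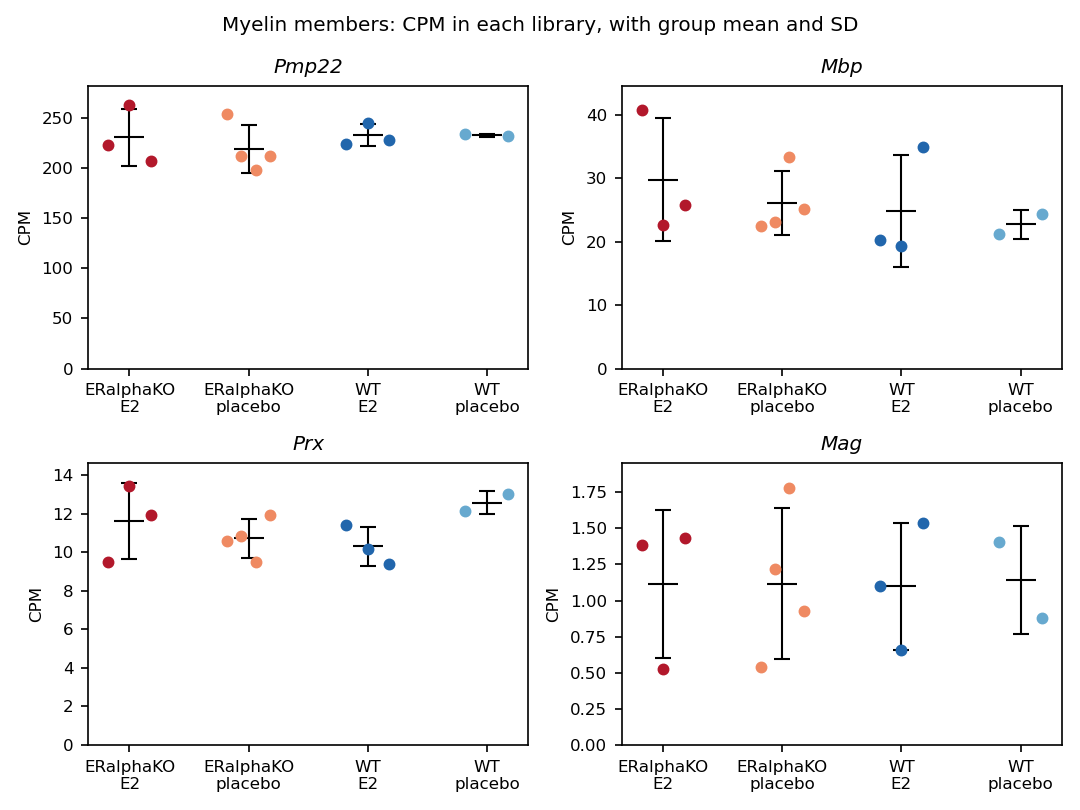
CPM of Pmp22, Mbp, Prx and Mag (y axes, linear, from 0) in each library of the 4 groups (x axis); points are libraries, and bars give the mean and SD. Pmp22 stays between 199 and 263 CPM, and every WT E2 library is below both WT Plb libraries for Prx.

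Across all tested genes, none of the 8 passed in any comparison that may be tested. For ERalphaKO Plb over WT Plb, 0 of 8 passed, against 0.0135% of the 14832 tested genes. Those were A2m and Esr1, both lower in ERalphaKO Plb, and 1325 genes had an unadjusted p under 0.05. DESeq2 called 123 higher and 27 lower genes there, and 157 higher and 90 lower genes for E2 in WT, none of them a member. For E2 over placebo in ERalphaKO, 0 of 8 passed and 0% of all genes did, with 846 at an unadjusted p under 0.05, while DESeq2 called 1 higher and 4 lower. For E2 over placebo in WT, 0 of 8 passed against 0.458% of all genes, which comprised 55 higher and 13 lower genes, and 1208 genes had an unadjusted p under 0.05. Counted by libraries that did not overlap, Sox10, Cdh19 and Prx were lower in WT E2 than in WT Plb, 3 of 8 members against 26.9% of all genes in either direction. Under placebo this held for Prx alone, 1 of 8 against 21.1%, and for E2 in ERalphaKO for none of 8 against 5.67%. Under E2, where 1.1% of all genes passed and 15.9% had no overlap between the genotypes, Sox10 and Cdh19 were without overlap, and nothing is read from that count.

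**Figure D3:**
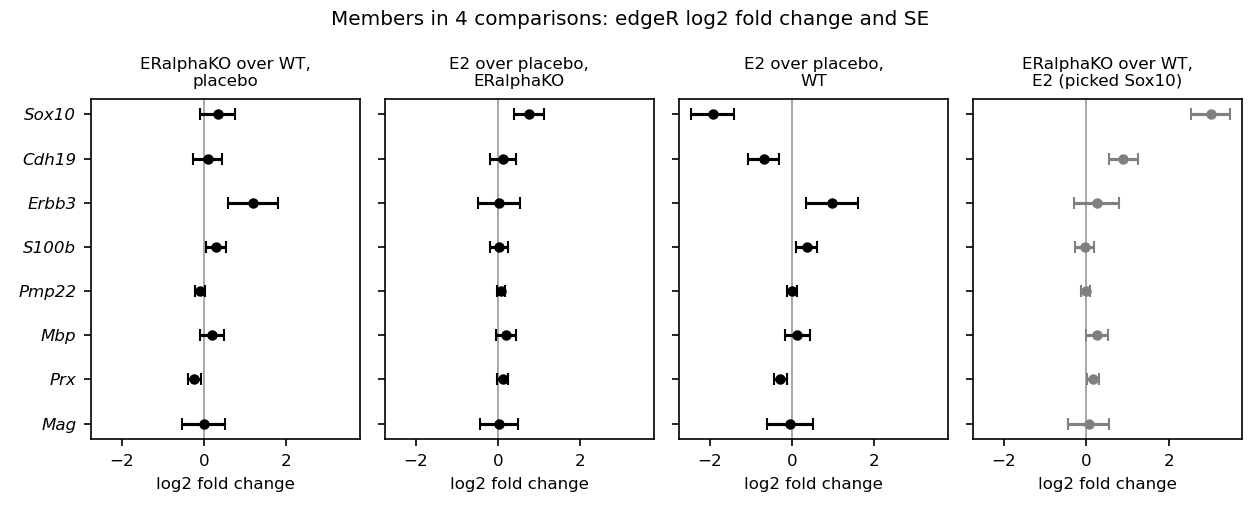
Log2 fold changes (x axis) of the 8 genes (y axis) with their standard errors in 4 comparisons, each with its numerator named first; grey points mark the comparison that picked Sox10. Sox10 stands at 0.34, 0.75, -1.93 and 3.02 from left to right, and the 4 myelin genes stay within 0.3 of 0 in every panel.

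The authors' deposited table gave smaller Sox10 values in the same directions. In the authors' deposited table the log2 fold change was 2.07 ± 0.59 for ERalphaKO over WT under E2 and -0.87 ± 0.51 for E2 in WT, where the p-value was 0.0858 and no adjusted value was listed. Under placebo the authors' deposited table gave 0.24 ± 0.50 (adjusted p = 0.998). DESeq2 run here on all 12 libraries gave Sox10 values of 3.10 under E2, -1.99 for E2 in WT and 0.35 under placebo. For S100b, with more counts, E2 in WT was 0.34 in the deposited table and 0.35 in edgeR. The deposited values may be on another measure, and the cause of the gap for Sox10 was not tested.

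Wider lists of genes from the same biology were set beside the members. They were chosen with earlier results known, and share several members, so each is described by its counts and its median beside the median of all tested genes, which was 0.01 under placebo and within 0.01 of 0 in the other comparisons. Of 14 genes of immature and non-myelinating Schwann cells, all were tested and none passed in the placebo or E2 comparisons. For ERalphaKO Plb over WT Plb their median was 0.19, with 11 positive, and for E2 in ERalphaKO it was 0.10, with 13 positive. For E2 in WT the median was -0.43, with 11 of 14 negative and 4 at an unadjusted p under 0.05. Without WT E2 replicate 3 that median was -0.22. Under E2, ERalphaKO over WT had a median of 0.58, given as a description since that comparison picked Sox10.

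Fabp7, the brain lipid-binding protein of immature glia, is more abundant than Sox10 and showed the WT E2 group apart. It had 6.81, 6.62 and 6.85 CPM in ERalphaKO E2 and 5.86, 6.27, 6.39 and 6.88 CPM in ERalphaKO Plb. WT E2 libraries had 3.66, 2.49 and 3.74 CPM, and WT Plb libraries 5.34 and 5.46 CPM. All 3 WT E2 libraries were below the other 9, again without a share of all tested genes to set beside it. E2 over placebo in WT gave a log2 fold change of -0.71 ± 0.18 (edgeR, adjusted p = 0.198), which did not pass, and ERalphaKO Plb over WT Plb gave 0.23 ± 0.17 (adjusted p = 0.740). Scn7a, a sodium channel of non-myelinating Schwann cells, and Gfra3, a receptor for the ligand artemin, are named after their values were seen. Scn7a had 0.853, 0.235 and 0.102 CPM in WT E2, and Gfra3 had 0.151, 0.0471 and 0 CPM there. WT Plb libraries had 0.528 and 1.72 CPM of Scn7a, so its WT groups overlapped, while they had 0.352 and 0.403 CPM of Gfra3, above every WT E2 library. In ERalphaKO E2 Scn7a had 2.77, 1.997 and 1.79 CPM and Gfra3 1.20, 1.05 and 0.409 CPM, and in ERalphaKO Plb Scn7a lay between 1.97 and 3.18 CPM and Gfra3 between 0.402 and 1.05 CPM. The 3 genes of the list with positive values for E2 in WT were Erbb3 and S100b, described above, and Ngfr, the low-affinity neurotrophin receptor of non-myelinating Schwann cells. Ngfr had 0.602, 0.315 and 0.818 CPM in ERalphaKO E2 and 0.483 to 0.677 CPM in ERalphaKO Plb. It had 1.20, 0.612 and 0.563 CPM in WT E2, against 0.293 and 0.696 CPM in WT Plb, and its log2 fold change for E2 in WT was 0.63 ± 0.51 (edgeR, adjusted p = 0.816).

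**Figure D4:**
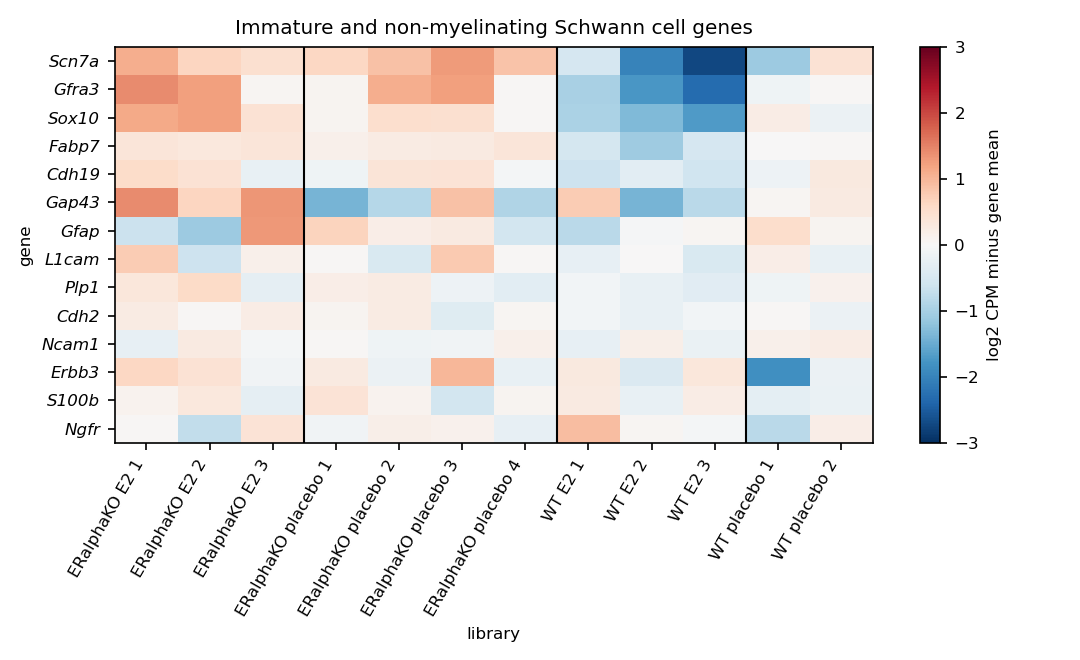
Log2 CPM of each gene minus its own mean over the libraries (colour scale) for the 14 genes of immature and non-myelinating Schwann cells (rows) in the 12 libraries (columns, grouped). Rows are ordered by their mean in WT E2, and Scn7a, Gfra3, Sox10, Fabp7 and Cdh19 at the top are below their own mean in all 3 WT E2 libraries.

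Of 22 peripheral myelin and node genes, 18 were tested, none passed in the placebo or E2 comparisons, and the medians were -0.00 under placebo, 0.07 for E2 in ERalphaKO and 0.01 for E2 in WT. Cnp, an enzyme of non-compact myelin and next to Pmp22 the most abundant gene of the list, averaged 60.4 CPM in ERalphaKO E2, 81.8 CPM in ERalphaKO Plb, 61.7 CPM in WT E2 and 68.2 CPM in WT Plb. Gjb1, the gap junction protein of myelin, and Pmp2, its fatty acid carrier, reached no more than 1 count in any library.

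Of 11 transcription factors of the Schwann cell lineage, 6 were tested and none passed in the placebo or E2 comparisons, with medians of 0.01 under placebo, 0.04 for E2 in ERalphaKO and -0.11 for E2 in WT, where all 6 were negative. Zeb2 averaged 169 CPM in ERalphaKO E2, 177 CPM in ERalphaKO Plb, 167 CPM in WT E2 and 169 CPM in WT Plb. Nab2, a corepressor of the Egr factors, averaged 91.7 CPM in ERalphaKO E2, 79.0 CPM in ERalphaKO Plb, 97.4 CPM in WT E2 and 99.1 CPM in WT Plb. Of 18 neuregulin and ErbB pathway genes, 13 were tested and none passed in the placebo or E2 comparisons, with medians of 0.13 under placebo, 0.03 for E2 in ERalphaKO and 0.01 for E2 in WT. The receptors Egfr, at 30.6 to 58.3 CPM, and Erbb2, the partner of Erbb3, at 22.8 to 30.5 CPM, were detected in every library. Erbb4 and Nrg3 had a maximum of 3 counts and 1 count in a library, while Nrg1, the ligand of Erbb3, reached 32 counts in one library and had none in 4.

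Of 12 genes of myelin lipid and cholesterol synthesis, 9 were tested and none passed in the placebo or E2 comparisons, and their median was -0.09 under placebo, -0.08 for E2 in ERalphaKO and -0.21 for E2 in WT, where all 9 were negative. Sqle, an enzyme of cholesterol synthesis, averaged 37.8 CPM in ERalphaKO E2, 39.7 CPM in ERalphaKO Plb, 36.6 CPM in WT E2 and 42.25 CPM in WT Plb. Of 16 genes of the S100 family, 13 were tested and none passed in the placebo or E2 comparisons. S100a9, a granulocyte protein that is also on the granulocyte list, averaged 998 CPM in ERalphaKO E2, 1525 CPM in ERalphaKO Plb, 116 CPM in WT E2 and 209 CPM in WT Plb. Single libraries spread widely around these means. S100a9 ran from 4.52 to 2720 CPM in ERalphaKO E2, 3.25 to 5360 CPM in ERalphaKO Plb, 0.518 to 346 CPM in WT E2 and 32.2 to 385 CPM in WT Plb. S100a8, its partner, averaged 520 CPM in ERalphaKO E2, 792 CPM in ERalphaKO Plb, 67.8 CPM in WT E2 and 104 CPM in WT Plb. It ran from 2.21 to 1416 CPM in ERalphaKO E2, 1.22 to 2758 CPM in ERalphaKO Plb, 0.565 to 202 CPM in WT E2 and 13.6 to 195 CPM in WT Plb. Of the 6 SoxE and SoxD factors, all were tested and none passed in the placebo or E2 comparisons. Their median was -0.04 under placebo, 0.13 for E2 in ERalphaKO and -0.23 for E2 in WT, where 5 of 6, Sox10 among them, were negative. The 2 with an unadjusted edgeR p under 0.05 were Sox10 and Sox13, and Sox13 was the positive gene, at 0.60 ± 0.22. Sox9, the SoxE factor of cartilage, averaged 75.9 CPM in ERalphaKO E2, 83.7 CPM in ERalphaKO Plb, 78.1 CPM in WT E2 and 109 CPM in WT Plb.

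Genes of axons and of other neural crest cells were mixed in abundance. Of 16 axon and neuron genes, 8 were tested and 6 averaged at least 1 CPM. Tubb3 averaged 8.60 CPM over the 12 libraries, Tac1 5.93, Stmn2 4.55, Ret 4.08 and Prph 3.05. Nefl and Nefm had at most 2 counts in a library, Snap25 at most 1, and Scn10a none. The whole list summed to 31.3 to 57.6 CPM, of which Uchl1 gave 11.2 to 26.7 CPM. Of 8 melanocyte genes, Tyr was at 0 and Tyrp1, Dct and Mlana had at most 2 counts in any library. The list summed to 25.4 to 27.5 CPM in ERalphaKO E2 and 29.4 to 32.7 CPM in WT E2, and Mitf accounted for 23.3 to 31.4 CPM over the 12 libraries. Of 6 oligodendrocyte genes, Mobp and Olig2 were at 0 and the sum never passed 0.483 CPM. Of 10 salivary gland genes, 4 were at 0 in all libraries and the sum was 2.76 to 6.97 CPM. A list of 9 endothelial genes summed to 306 to 347 CPM in ERalphaKO E2, 300.3 to 354 CPM in ERalphaKO Plb, 275 to 475 CPM in WT E2 and 285 to 311 CPM in WT Plb.

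Genes that followed Sox10 across the 12 libraries were sought by the Pearson correlation of log2 CPM among 13546 genes with a mean of at least 1 CPM. These values describe libraries that share their groups, and carry no p. The closest were Ccdc3 (r = 0.96), Lingo3 (0.96), D4Bwg0951e (0.95), Pgbd5 (0.94) and Slc20a2 (0.92), followed by Abhd15, Tmem178, Ubxn2a, Cd59a and Dtx4, with r between 0.91 and 0.92. Slc20a2, a sodium-dependent phosphate transporter, had 191, 145 and 147 CPM in ERalphaKO E2, 155, 153, 126 and 154 CPM in ERalphaKO Plb, 58.7, 47.3 and 48.9 CPM in WT E2, and 118 and 114 CPM in WT Plb. D4Bwg0951e had 29.5, 18.6 and 17.3 CPM in ERalphaKO E2, 13.05, 19.3, 14.4 and 18.1 CPM in ERalphaKO Plb, 5.27, 5.41 and 4.15 CPM in WT E2, and 13.4 and 12.5 CPM in WT Plb. For both genes the WT E2 libraries were the 3 lowest of the 12, which their choice by correlation with Sox10 favours. None of these 10 genes is a member of the glial lists. The cutoff of 1 CPM kept only 7 of the 14 immature Schwann cell genes as candidates. Cdh19, Erbb3 and Gfra3 were among those it left out, so nothing is read from this absence. For Mag the closest were Tm7sf4, Rufy4 and Acp5 (r = 0.94, 0.94 and 0.93), of which Acp5 and Tm7sf4 are known from osteoclasts. For Cdh19 they were Rad17, Fras1 and Tceb3, for Erbb3 Taf15, BC037704 and Amy1, and for S100b Arhgap12, Rwdd3 and Vps33b. For Mbp they were Ankrd33b, Zc3h8 and Mknk1, for Pmp22 Six5, Sobp and Plcg1, and for Prx Pcolce, Nipa1 and Endod1.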

How the data were processed

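The authors deposited a table of raw counts per gene symbol for 12 libraries, and the counts were used as deposited. Tools named in the submitters' processing notes are bcl2fastq 2.17 and TopHat, with build mm9. The counting tool, annotation and strand are not given in the sources used here. Poly-A libraries were read at 100 bases, per the labels' protocols. The authors' deposited comparison tables give log2 fold changes with standard errors, p-values, a mean signal and a test score, in a DESeq2 layout per the file headers.

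Genes passing edgeR's filter (minimum count 10, 14832 of 23284) were scaled by TMM and tested with edgeR 4.0.16 (quasi-likelihood, Benjamini-Hochberg, threshold 0.05) in R 4.3.3, with 1 mean per group and 8 residual degrees of freedom. SE was derived from the F statistic of each contrast. Log2 CPM used a prior count of 2. Floors and counting intervals cover counting error only, and reads carried no molecular identifiers. The test was also run on simulated counts, with changed genes drawn from all tested genes. Its recovery of changes in genes with as few counts as Sox10 was not assessed. Chromosomes and exon lengths come from GENCODE M21. DESeq2 1.42.0 was an alternative. Members and lists were chosen with earlier results of these data known. Named genes were the members, up to 3 list genes past the threshold in each comparison (or the 2 most abundant) and the genes closest to each member by correlation. Some list genes that this rule would name are not reported here.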

Additional observations from a re-analysis of the deposited data

How the results depend on the processing

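No member passed the threshold under any alternative of the placebo and E2 comparisons. Sox10 stayed negative for E2 in WT in all 17 alternatives that gave a value (-2.33 to -1.64, adjusted p from 0.225 to 0.880), and it could not be tested among the 5 WT libraries alone, where it fell under the filter. The counting of few reads limits Sox10, Cdh19, Erbb3 and Mag. Where leaving out a library left WT Plb with 1, the spread was pooled and that library was assumed to vary like the others. Whether replicate numbers pair the libraries was not settled, and correlations of same-numbered deviations ran from -0.33 to 0.50. Under placebo both were positive, at 0.50 and 0.32, while no comparison of 3 pairs had all of them over 0.1. Replicate 2 was positive in every comparison, at 0.32, 0.47, 0.21 and 0.30. With numbers as a replicate block, Sox10 was 0.60 under placebo and -1.82 for E2 in WT.

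Genes called higher and lower were 123 and 27 (DESeq2) under placebo, where edgeR called 0 and 2, with 0 lower under the replicate block, 1 with the muscle covariate and 0 in a fit of only the 2 groups. For E2 in ERalphaKO DESeq2 called 1 higher and 4 lower. For E2 in WT they were 157 and 90 (DESeq2), 15 and 3 (block), 31 higher with the muscle covariate, and 7 and 0 (only the 2 groups). For genotype under E2 they were 245 and 252 (DESeq2), 19 and 43 (block), 25 and 58 (muscle), and 10 and 56 (only the 2 groups).

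Under the block, E2 values turned to -0.074 for Erbb3 and -0.11 for Mag in ERalphaKO, and to -0.053 for Mbp and 0.054 for Pmp22 in WT. With the muscle covariate, Cdh19 turned to -0.013 under placebo, S100b to -0.10 for E2 in ERalphaKO and Pmp22 to 0.032 for E2 in WT, and Cdh19 under E2 was 1.21. List medians moved for the neuregulin list under placebo (0.27 unfiltered, 0.0073 block, 0.024 only the 2 groups) and for E2 in ERalphaKO (-0.32 unfiltered), for the transcription factors for E2 in ERalphaKO (0.19 unfiltered, 0.18 block, 0.13 muscle), for E2 in WT (-0.49 unfiltered) and for genotype under E2 (0.77 unfiltered), and for the immature Schwann cell list for E2 in ERalphaKO (0.33 muscle) and for E2 in WT (-0.22 only the 2 groups). Without TMM factors WT Plb means were 13.6 CPM for S100b and 224.8 CPM for Pmp22. The cause of these shifts was not tested.

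As single libraries were left out, the tested members that changed sign, and the counts and medians that moved past the limits set for them, had these ranges. Under placebo Cdh19 ran from -0.13 to 0.39, Mag from -0.32 to 0.35, the neuregulin median from -0.098 to 0.52, and calls from 0 to 2 higher and 1 to 2 lower. For E2 in ERalphaKO, Erbb3 ran from -0.17 to 0.41, Cdh19 from -0.077 to 0.35, S100b from -0.14 to 0.17, Mbp from -0.10 to 0.35, Pmp22 from -0.028 to 0.16, Prx from -0.0013 to 0.24, Mag from -0.19 to 0.34 and the transcription factor median from 0.00076 to 0.17. For E2 in WT, Mbp ran from -0.20 to 0.28, Pmp22 from -0.042 to 0.023, Mag from -0.36 to 0.32, the immature Schwann cell median from -0.43 to -0.22, the lipid median from -0.37 to 0.039, and calls from 1 to 113 higher and 0 to 18 lower, outside 1.5 times in 11 and 10 of 12 fits. For genotype under E2, calls ran from 16 to 82 higher and 35 to 172 lower, and Sox10 from 2.73 to 3.42, while Mbp ran from -0.033 to 0.59, Mag from -0.21 to 0.38, S100b from -0.18 to 0.11 and Pmp22 from -0.12 to 0.061. Other list medians near 0 also changed sign, by less than the spread between libraries. Under placebo these included the myelin (-0.045 to 0.060), SoxE and SoxD (-0.22 to 0.11), S100 (-0.0048 to 0.12) and lipid (-0.16 to 0.019) medians.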
